A study of Homo sapiens with 35 samples.

Results

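H9 cells, a human embryonic stem cell line, that had spent 48 h in E8 medium after seeding were compared with H9 cells at time zero (t0), to ask what seeding and 2 days of culture change in cells kept in the medium meant to hold them pluripotent. The comparison uses 6 of the 35 libraries of a mesendoderm induction study: 3 of E8 at 48 h and 3 of t0. Every group shares this 1 line. All cells had been grown in E8 on Matrigel and passaged with EDTA. The 48 h groups were then seeded as single cells into E8, into E6, or into E6 carrying 40 ng/mL each of the growth factors BMP4 and Activin A (BA). E8 is the study's pluripotency control. E6 is E8 without FGF2 and TGF-beta, here the control for spontaneous differentiation. The labels call t0 the time zero control and name neither cell density, nor oxygen level, nor the additives used at seeding. They also do not say whether the replicates were separate cultures, so the p-values measure the spread between these libraries, which may be technical.

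A pluripotent stem cell makes most of its energy by glycolysis even in air. When oxygen falls, the prolyl hydroxylases of the EGLN family stop marking the HIF-1 alpha protein for destruction, and HIF-1 then switches on genes of sugar uptake, glycolysis, lactate export and oxygen sensing. When growth signals or nutrients fall, FOXO factors switch on a set of brakes on growth, and the MYC programme of ribosome building is turned down. Single-cell seeding and colony growth also bear on YAP and SRF, transcriptional regulators that read cell spreading and actin tension.

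The 6 libraries held 17340923, 37191969 and 26097462 counts in E8 at 48 h and 19274380, 31251959 and 28964895 counts at t0. Replicate 1 of both groups stood apart from replicates 2 and 3. On the log scale and across genes, replicates 2 and 3 correlated at r = 0.988 in E8 and 0.991 at t0, while replicate 1 correlated with either at 0.908 to 0.909 in E8 and 0.915 to 0.916 at t0. The change was therefore computed within each replicate number (the number entered the model as a block). Values are given for replicate 1 and for replicates 2 and 3 wherever they part. Replicate 1 is 1 library a group. A p for its difference from replicates 2 and 3 therefore rests on the spread between replicates 2 and 3. Levels are CPM, counts scaled to the size of each library, and a gene is called at an adjusted p below 0.05 in edgeR's quasi-likelihood test.

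Of 21554 genes tested, 5510 were called (25.6%), 2716 higher (12.6%) and 2794 lower (13.0%) in E8 at 48 h than at t0. With a change of at least 2-fold, 1706 were higher (7.92%) and 344 lower (1.60%), together 9.51% of genes. In 4013 genes (18.6%) the 3 E8 libraries did not overlap with the 3 t0 libraries, all E8 libraries being higher in 10.9% and lower in 7.77% of genes. The balance of higher and lower calls also moved: it was 1891 higher and 1444 lower from only the 6 libraries, and 1235 higher and 779 lower without E8 replicate 2. The count rests on the block and on replicates 2 and 3: 30 genes (0.139%) were called without the block, among them 2 hypoxia, 3 starvation and 1 NRF2 gene of the lists below. Leaving out 1 library gave 2014 without E8 replicate 2, 2361 without E8 replicate 3, 1739 without t0 replicate 2 and 1539 without t0 replicate 3, against 6200 without E8 replicate 1 and 6083 without t0 replicate 1. Without replicate 2 in every group 4 genes were called, without replicate 3 in every group 2, and without replicate 1 in every group 11728. At an unadjusted p below 0.05 in edgeR there were 3481 genes without replicate 2 and 3551 without replicate 3.

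The cells carried the markers of pluripotent cells in every library. POU5F1, the transcription factor that defines them, had 660, 1882 and 1472 CPM in E8 at 48 h and 456, 1391 and 1051 CPM at t0 (log2 change 0.50 ± 0.29 SE, edgeR adjusted p = 0.218). Its partner SOX2 had 218, 138 and 130 CPM in E8 and 227, 215 and 211 CPM at t0 (-0.38 ± 0.77, edgeR adjusted p = 0.750). The homeobox factor NANOG had 32.5, 62.1 and 63.6 CPM in E8 and 26.8, 56.9 and 58.3 CPM at t0 (0.19 ± 0.44, edgeR adjusted p = 0.781). In all 3 genes the groups overlap. Without replicate 1 in every group, POU5F1 was called higher (log2 change 0.52, edgeR adjusted p = 0.0156). SOX2 was then called lower (-0.61, edgeR adjusted p = 7.91e-05), and NANOG was not called (0.19, edgeR adjusted p = 0.223). Pseudogenes much like POU5F1 and NANOG may have taken or given reads in counting, which makes both levels uncertain.

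Of 33 pluripotency genes, 3 were called, against 25.6% of all genes. The median log2 change was -0.29, against -0.00 over all genes tested. It was 0.11 in replicate 1 and -0.38 in replicates 2 and 3. Of the members, 11 differed between these sets, against 14.0% of all genes. DPPA2, a chromatin factor of early embryos, rose to 0.865, 3.27 and 3.74 CPM in E8, against 0.690, 1.39 and 1.8 CPM at t0 (adjusted p = 0.0301). LIN28B, a repressor of let-7 microRNAs, fell to 263, 87.4 and 82.3 CPM in E8, against 313, 151 and 150 CPM at t0 (adjusted p = 0.00773). SALL4, a zinc finger factor, fell to 286, 200 and 164 CPM in E8, against 295, 261 and 256 CPM at t0 (adjusted p = 0.0314). Leaving out t0 replicate 2 or 3 ended each of the 3 calls, with an adjusted p of up to 0.149 for DPPA2, 0.0652 for LIN28B and 0.207 for SALL4. The count of the list also depended on the libraries used. From only the 6 libraries with the block, 4 members were called higher and 7 lower. Without replicate 1 in every group, 6 were higher and 20 lower, where 6102 of all genes were higher and 5626 lower.

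Markers of other cell types were summed over each list. The primitive streak list summed to 15.2 to 21.6 CPM in E8 and 13.1 to 20.2 CPM at t0, with 1 of 19 members called higher (TBX6). Definitive endoderm summed to 33.5 to 36.1 CPM in E8 and 27.6 to 37.2 CPM at t0, with 1 of 12 tested members higher (HHEX) and 1 lower (AFP). Amnion and trophoblast summed to 14.4, 25.9 and 24.5 CPM in E8 and 20.8, 12.2 and 13.8 CPM at t0, lower in E8 in replicate 1 and higher in replicates 2 and 3. Of its 13 tested members 2 were higher (GABRP and PGF), and 4 members had 0 counts in all 6 libraries. Early mesoderm (2 of 15 higher) summed to 165, 135 and 126 CPM in E8 and 179, 87.3 and 84.4 CPM at t0. Neural crest (1 of 11 higher) summed to 180, 279 and 248 CPM in E8 and 175, 192 and 190 CPM at t0. Blood and endothelium (2 of 10 higher) summed to 124, 91.2 and 94.3 CPM in E8 and 143, 82.5 and 82.9 CPM at t0. Early mesoderm and blood and endothelium were thus lower in E8 in replicate 1 and higher in replicates 2 and 3. Neuroectoderm summed to 265 to 397 CPM in E8 and 312 to 686 CPM at t0 (2 of 18 higher, 1 lower), its highest value being t0 replicate 1. Fibroblast genes, which include collagens, summed to 883 to 995 CPM in E8 and 914 to 987 CPM at t0 (3 of 12 higher, 1 lower). Over all genes 12.6% were called higher and 13.0% lower. In bulk RNA, fewer cells of a type and less RNA per cell cannot be told apart.

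Genes of hypoxia and glycolysis moved together and in 1 direction. All 36 members of the list were measured, and 30 rose, against 12.6% of all genes called higher. No member was called lower by edgeR (0 at an unadjusted p below 0.05, and 0 by DESeq2, which called 32 higher). The median log2 change was 1.34, against -0.00 over all genes tested. The sum of the list was 16922, 31242 and 28037 CPM in E8 at 48 h and 10831, 13715 and 14138 CPM at t0. In 25 of the 36 the groups did not overlap, against 18.6% of all genes. The count was 20 without t0 replicate 2, 21 without t0 replicate 3 and 25 to 33 without any other library.

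Many promoters of the list hold the core of the hypoxia response element, the DNA word that HIF-1 binds. The core ACGTG, read on both strands, lay in the 250 bases upstream of the start in 16 of the 33 members found in the RefSeq promoter table (48.5%), against 18.7% of 27305 promoters. The members' windows held 66.9% G and C, against 56.9% over all promoters, and the role of base composition in this share was not tested. Shown here are the 5 called members with the most core matches (2 or more), whose levels are given below, from RefSeq on GRCh38.p14, 5′ to 3′ on the gene's strand with the core in capitals. In CACGTG the matches of both strands overlap. The windows are chr10:131981924-131982173 on the minus strand for BNIP3, chr4:185396591-185396840 on the plus strand for ANKRD37, chrX:78103998-78104247 on the plus strand for PGK1, chr11:18394313-18394562 on the plus strand for LDHA and chr17:28576896-28577145 on the minus strand for ALDOC.
BNIP3: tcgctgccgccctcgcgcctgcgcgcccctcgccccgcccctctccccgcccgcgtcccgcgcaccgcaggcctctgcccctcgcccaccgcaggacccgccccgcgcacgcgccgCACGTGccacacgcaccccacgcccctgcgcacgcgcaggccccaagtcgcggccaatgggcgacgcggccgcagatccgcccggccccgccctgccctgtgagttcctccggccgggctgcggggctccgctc
ANKRD37: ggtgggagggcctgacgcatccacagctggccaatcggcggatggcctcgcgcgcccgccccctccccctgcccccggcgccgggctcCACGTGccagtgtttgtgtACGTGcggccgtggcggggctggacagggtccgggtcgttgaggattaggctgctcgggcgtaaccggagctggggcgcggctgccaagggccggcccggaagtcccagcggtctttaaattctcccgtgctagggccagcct
PGK1: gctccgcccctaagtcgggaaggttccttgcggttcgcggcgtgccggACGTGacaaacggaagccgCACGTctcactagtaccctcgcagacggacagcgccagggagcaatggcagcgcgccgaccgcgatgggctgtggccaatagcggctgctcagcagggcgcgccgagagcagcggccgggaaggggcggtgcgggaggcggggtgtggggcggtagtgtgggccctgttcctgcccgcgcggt
LDHA: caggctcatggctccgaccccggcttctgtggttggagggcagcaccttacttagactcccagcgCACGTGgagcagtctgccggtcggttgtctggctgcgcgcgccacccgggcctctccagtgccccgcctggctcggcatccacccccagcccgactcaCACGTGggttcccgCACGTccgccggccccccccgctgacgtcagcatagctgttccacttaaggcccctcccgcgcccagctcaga
ALDOC: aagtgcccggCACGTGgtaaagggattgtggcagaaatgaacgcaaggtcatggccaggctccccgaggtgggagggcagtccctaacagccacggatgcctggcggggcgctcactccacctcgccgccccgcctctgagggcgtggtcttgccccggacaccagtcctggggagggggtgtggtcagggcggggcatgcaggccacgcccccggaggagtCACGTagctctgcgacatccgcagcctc
LDHA holds the core at 3 places, 2 of them as CACGTG, and PGK1 at 2 places. The window of SLC16A3, the member with the largest change, holds no match, which says only that these letters are not in these 250 bases.

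The largest change of the list was in a transporter of lactate. SLC16A3 (chromosome 17, 82228397 to 82261129 on GRCh38), which encodes the lactate exporter MCT4, had 68.9, 184 and 171 CPM in E8 at 48 h and 1.43, 1.65 and 2.54 CPM at t0. The lowest E8 library stood far above the highest t0 library, and the rise was 79.8-fold (log2 change 6.32 ± 0.42 SE, adjusted p = 6.28e-05). It was also called without the block (adjusted p = 0.0456) and without any 1 of the 6 libraries (up to 0.00125). SLC2A1, the glucose transporter GLUT1, had 1153, 2804 and 2561 CPM in E8 and 479, 488 and 463 CPM at t0 (3.85-fold, adjusted p = 0.00532). Its paralog SLC2A3, GLUT3, had 1063, 1549 and 1601 CPM in E8 and 891, 552 and 551 CPM at t0 and missed the threshold (log2 change 1.0 ± 0.36, adjusted p = 0.0639).

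Within glycolysis itself 11 of 15 enzyme genes rose, against 12.6% of all genes, with a median log2 change of 0.86 over the 15. When 1 library was left out, PGAM1 and ENO1 kept their calls in 2 of 6 fits and ALDOA in 3 of 6. The summed level of the 15 was 13362, 24456 and 21453 CPM in E8 and 8942, 12057 and 12445 CPM at t0. PGK1 (chromosome X, 77910739 to 78129296), which makes the first ATP of the pathway, had 1078, 3179 and 2967 CPM in E8 and 492, 507 and 551 CPM at t0 (3.84-fold, adjusted p = 0.00447). LDHA, the lactate dehydrogenase subunit of anaerobic tissues, had 1176, 2468 and 2390 CPM in E8 and 572, 772 and 834 CPM at t0 (2.57-fold, adjusted p = 0.00629). ALDOC, an aldolase best known from brain, had 62.8, 153 and 126 CPM in E8 and 34.1, 47.6 and 45.0 CPM at t0 (2.50-fold, adjusted p = 0.00901, and up to 0.0612 without t0 replicate 2 or 3). In these 3 genes every E8 library was above every t0 library.

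The 4 enzyme genes that were not called were the hexokinases HK1 and HK2, the isomerase GPI and GAPDH, the dehydrogenase often used as a loading control. HK2 had 398, 355 and 335 CPM in E8 and 220, 182 and 199 CPM at t0, with no overlap (log2 change 0.86 ± 0.31, adjusted p = 0.0608). GAPDH had 2027, 2582 and 2204 CPM in E8 and 1555, 2019 and 2139 CPM at t0, with overlap (0.28 ± 0.13, adjusted p = 0.133). GAPDH, PGAM1, LDHA, ENO1 and other abundant enzymes have processed pseudogenes that can take or lose reads in counting, so their levels are uncertain. SLC2A1, SLC2A3, LDHA, ALDOC, HK2, GAPDH and the other members outside the naming rule were chosen for their roles after their values were seen.

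All 4 kinase genes that steer the pathway rose, but PDK3 was called in only 1 of 6 fits with 1 library left out (adjusted p up to 0.135). PFKFB4, which makes the fructose bisphosphate that drives phosphofructokinase, had 115, 190 and 186 CPM in E8 and 21.7, 18.9 and 20.1 CPM at t0 (7.44-fold, adjusted p = 0.00132). PDK1, which shuts pyruvate out of the mitochondrion, had 187, 173 and 176 CPM in E8 and 69.0, 53.7 and 62.8 CPM at t0 (2.90-fold, adjusted p = 0.00793, and up to 0.0542 without t0 replicate 2 or 3). PDK1 is also a member whose change was alike in size in replicate 1 (1.43) and in replicates 2 and 3 (1.58; adjusted p of the difference = 0.371).

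Both oxygen sensor genes rose. EGLN1, whose protein PHD2 hydroxylates HIF-1 alpha, had 74.1, 74.4 and 66.6 CPM in E8 and 35.8, 18.3 and 18.9 CPM at t0 (2.92-fold, adjusted p = 0.00683). EGLN3 had 21.0, 54.9 and 59.1 CPM in E8 and 12.0, 24.5 and 23.5 CPM at t0, with overlap, and it was called (adjusted p = 0.0431) without only E8 replicate 1, reaching 0.153 without E8 replicate 3. P4HA2 (chromosome 5, 132191838 to 132295315), a prolyl hydroxylase that matures collagen, had 21.1, 40.0 and 39.0 CPM in E8 and 3.08, 5.18 and 5.08 CPM at t0 (7.60-fold, adjusted p = 1.25e-04).

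All 7 remaining targets of the list rose, with a median log2 change of 2.36. Of these, CA9 kept its call in 2 and NDRG1 in 4 of 6 fits with 1 library left out. BNIP3 (chromosome 10, 131966455 to 131982013), a mitophagy receptor, had 168, 426 and 413 CPM in E8 and 22.2, 32.3 and 39.0 CPM at t0 (9.78-fold, adjusted p = 0.00105). ANKRD37, a small ankyrin repeat gene, had 1.79, 6.07 and 5.72 CPM in E8 and 0.425, 0.713 and 0.706 CPM at t0 (7.27-fold, adjusted p = 0.00286). MXI1, a MAX partner that opposes MYC, had 17.6, 59.4 and 56.7 CPM in E8 and 8.07, 8.65 and 8.68 CPM at t0 (4.66-fold, adjusted p = 0.00112). INSIG2, a brake on sterol synthesis, had 30.3, 50.3 and 60.5 CPM in E8 and 10.3, 7.22 and 8.22 CPM at t0 (5.12-fold, adjusted p = 0.00104). No E8 library of these 4 genes fell to the level of a t0 library.

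The secreted factors of the list moved less evenly, and 2 of the 3 were called higher. ANGPTL4 had the largest log2 change of the 3, 2.62 (edgeR adjusted p = 0.00257), and was called without any 1 library. VEGFA, the angiogenic growth factor, had 84.6, 157 and 178 CPM in E8 and 54.0, 96.3 and 104 CPM at t0 (1.64-fold, adjusted p = 0.00914, and 0.0574 without t0 replicate 2). Replicate 1 of E8 lay below replicates 2 and 3 of t0, so the groups overlap although VEGFA was higher in E8 within each replicate number. ADM, the vasodilator adrenomedullin, had 56.0, 330 and 299 CPM in E8 and 62.1, 187 and 206 CPM at t0 and was not called (adjusted p = 0.720).

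The size of the hypoxia change differed between the replicate sets for 18 of the 36 members, all 18 larger in replicates 2 and 3. Over all genes 14.0% differed, 7.78% with a larger and 6.25% with a smaller change in replicates 2 and 3. The median log2 change was 0.87 in replicate 1 and 1.55 in replicates 2 and 3, and 34 of 36 members had the same sign in all 3 replicate pairs, against 54.3% of all genes. NDRG1, a stress-response gene of the list, shows the widest gap: it had 3.17, 74.3 and 88.2 CPM in E8 and 1.81, 3.14 and 3.95 CPM at t0, a log2 change of 0.67 in replicate 1 and 4.34 in replicates 2 and 3 (adjusted p of the difference = 0.0011).

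**Figure D1:**
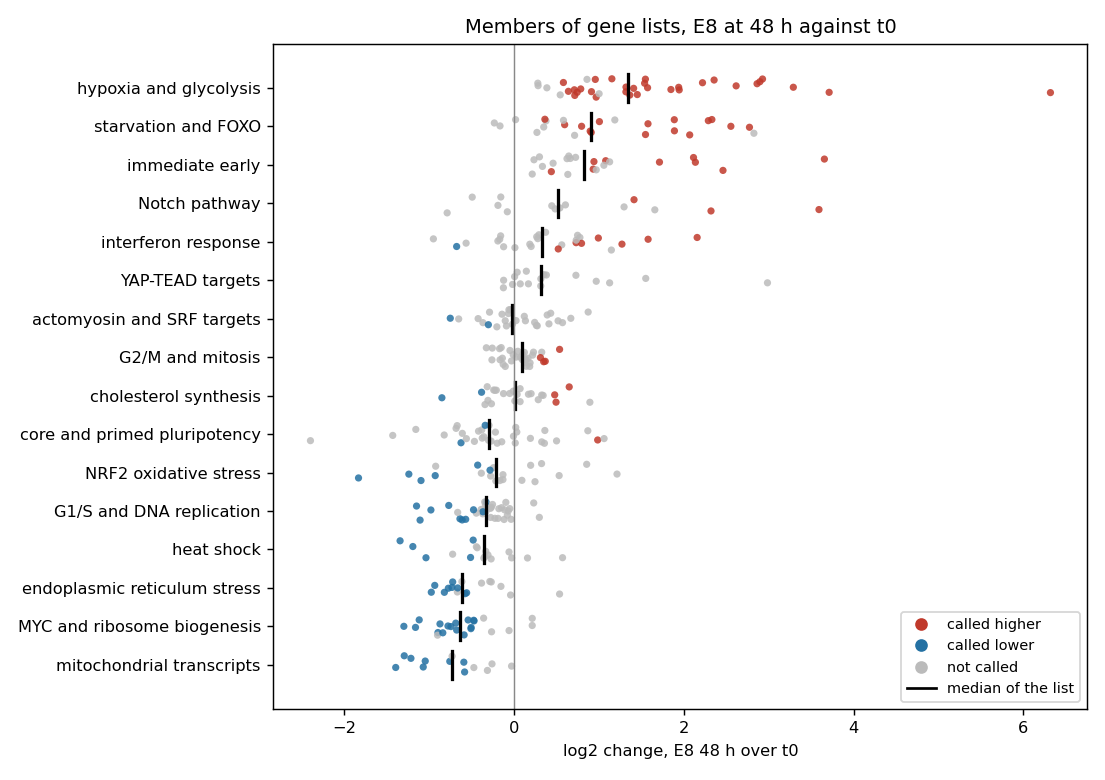
Log2 change of E8 at 48 h over t0 for each measured member of 16 gene lists, 1 point a gene, red where called higher, blue where called lower and grey where not called; the black bar is the median of the list. The hypoxia and glycolysis list lies to the right of 0 with a median of 1.34, and the MYC and ribosome biogenesis list to the left with a median of -0.63.

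Outside the lists, the 12 largest rises among called genes with at least 10 CPM in either group and 1 sign in all 3 pairs included SLC16A3 and several genes at or near 0 at t0. PPFIA4, a liprin of cell adhesion sites, had 54.2, 139 and 193 CPM in E8 and 3.35, 6.35 and 6.70 CPM at t0 (log2 change 4.51 ± 0.36, adjusted p = 1.26e-04). MIR210HG (chromosome 11, 565660 to 568457), the host transcript of the hypoxia microRNA miR-210, had 10.03, 38.6 and 48.6 CPM in E8 and 0.531, 1.30 and 2.40 CPM at t0 (4.78 ± 0.50, adjusted p = 4.41e-04). NRN1, which encodes the neuronal surface protein neuritin, had 0.576, 25 and 28.0 CPM in E8 and 0, 0.130 and 0.0706 CPM at t0 (8.0 ± 0.67, adjusted p = 1.40e-04). In replicate 1 of NRN1 the E8 level itself was under 1 CPM.

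ANKRD33, another ankyrin repeat gene, had 1.38, 15.2 and 20.0 CPM in E8 and 0.0531, 0.227 and 0.0353 CPM at t0 (6.97 ± 0.54, adjusted p = 1.25e-04). CD300A, an inhibitory receptor known from leukocytes, had 1.21, 14.9 and 15 CPM in E8 and 0.106, 0.259 and 0.106 CPM at t0 (6.31 ± 0.72, adjusted p = 6.09e-04). SPAG4, a SUN-domain protein gene, FER1L4, a noncoding relative of the ferlins, and ATP8B3, a lipid flippase gene, rose by 4.55, 4.08 and 4.08 on the log2 scale (adjusted p = 2.66e-04, 3.99e-04 and 0.00662). SLC16A3, PPFIA4, MIR210HG, NRN1, ANKRD33, CD300A, SPAG4, FER1L4 and ATP8B3 were called whichever of the 6 libraries was left out. The remaining 3 rises were less firm. RPL13AP20 is a pseudogene whose rise rests on 323 CPM in E8 replicate 2, against 0.404 and 0.857 CPM in E8 replicates 1 and 3. NPM1P32, also a pseudogene, and RP11-564A8.4 had under 1 CPM in E8 replicate 1 and did not keep their calls in 3 and 4 of the 6 fits that left out 1 library (reaching 0.0946 and 0.149).

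**Figure D2:**
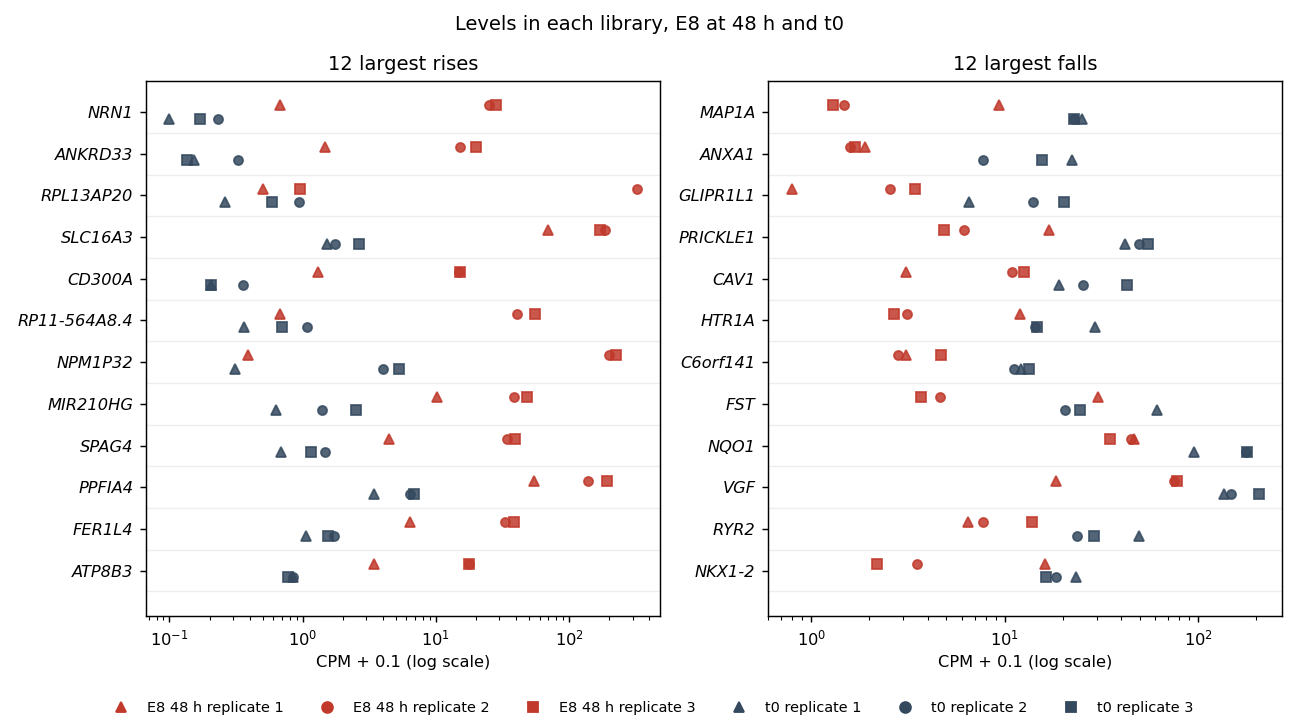
Level in each library, as CPM + 0.1 on a log axis, of the 12 called genes with the largest rise (left) and the 12 with the largest fall (right), with E8 at 48 h in red above t0 in blue and a marker shape for each replicate number. SLC16A3 runs from 68.9 to 184 CPM in E8 and from 1.43 to 2.54 CPM at t0, and ANXA1 from 1.49 to 1.79 CPM in E8 and from 7.61 to 22.1 CPM at t0.

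Genes of starvation and FOXO signalling were called higher more often than genes at large. Of 25 tested genes of starvation and FOXO signalling, 15 rose, against 12.6% of all genes, and none was called lower by edgeR (0 at an unadjusted p below 0.05, 0 by DESeq2), with 11 to 18 calls when 1 library was left out. The median log2 change of the list was 0.91, being 0.26 in replicate 1 and 1.01 in replicates 2 and 3. The change of 15 of the 25 differed between the sets, all larger in replicates 2 and 3, against 7.78% of all genes. In replicate 1 the change was positive in 18 of the 25, and 6 had opposite signs in the sets, against 35.9% of all genes. PNRC1, a nuclear receptor coregulator, had 21.1, 30.5 and 26.7 CPM in E8 and 5.15, 7.42 and 6.31 CPM at t0. The change of PNRC1 was even, at 1.93 in replicate 1 and 1.98 in replicates 2 and 3 (log2 change 2.07 ± 0.10, adjusted p = 4.52e-06, and 0.0147 without the block). PIK3IP1, an inhibitor of PI3 kinase, had 4.78, 16.9 and 16.9 CPM in E8 and 1.97, 1.62 and 1.66 CPM at t0 (6.84-fold, adjusted p = 0.00104). BNIP3L, the mitophagy receptor NIX, had 172, 119 and 110 CPM in E8 and 57.6, 28.2 and 25.8 CPM at t0 (3.70-fold, adjusted p = 9.11e-04).

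INSR, the insulin receptor gene and a FOXO target, had 29.5, 55.9 and 51.5 CPM in E8 and 18.7, 24.5 and 23.9 CPM at t0 (2.01-fold, adjusted p = 0.00103). YPEL3, a growth-suppressing gene, had 5.71, 38.7 and 36.3 CPM in E8 and 2.82, 11.6 and 11.5 CPM at t0 (2.93-fold, adjusted p = 7.58e-04). DDIT4, the inhibitor of mTORC1 also known as REDD1, had 66.3, 109 and 101 CPM in E8 and 12.4, 19.4 and 25.2 CPM at t0 (5.03-fold, adjusted p = 0.00129). These 6 genes were called without any 1 library. Only in YPEL3 did the groups overlap, through replicate 1 of E8.

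Ribosome building moved the other way. Of 22 MYC target and ribosome biogenesis genes, 16 fell, against 13.0% of all genes called lower, and none was called higher by edgeR (1 at an unadjusted p below 0.05, 1 by DESeq2). The median log2 change was -0.63, being -0.33 in replicate 1 and -0.85 in replicates 2 and 3. The count was 8 without E8 replicate 2, 10 without E8 replicate 3, 10 without t0 replicate 2 and 9 without t0 replicate 3. RRS1, a ribosome assembly factor, had 47.0, 32.6 and 27.8 CPM in E8 and 64.7, 103 and 104 CPM at t0 (log2 change -1.30 ± 0.23, adjusted p = 0.00408). RRP12, which exports ribosomal subunits, had 120, 54.3 and 48.8 CPM in E8 and 178, 141 and 137 CPM at t0 (-1.12 ± 0.15, adjusted p = 0.00104). NOP2, an rRNA methyltransferase, had 107, 75.8 and 74.6 CPM in E8 and 135, 160 and 169 CPM at t0 (-0.84 ± 0.15, adjusted p = 0.00448). In each of the 3 every E8 library was below every t0 library, and the calls held without any 1 library. POLR1B, the second subunit of RNA polymerase I, fell to 118, 55.0 and 53.8 CPM in E8, against 169, 115 and 117 CPM at t0 (adjusted p = 0.00275), with overlap through replicate 1 of E8.

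Protein-folding genes fell in part. Of 17 heat shock genes 5 fell, against 13.0% of all genes (3 or fewer without E8 replicate 2 or 3 or t0 replicate 2 or 3, and 8 without E8 replicate 1). Over the 17 the median log2 change was 0.07 in replicate 1 and -0.66 in replicates 2 and 3. HSPA8, the constitutive HSC70 chaperone, had 2236, 1037 and 919 CPM in E8 and 3427, 3204 and 3429 CPM at t0 (log2 change -1.34 ± 0.22, adjusted p = 0.0027). DNAJA1, its cochaperone, had 306, 159 and 159 CPM in E8 and 395, 419 and 417 CPM at t0 (-1.04 ± 0.20, adjusted p = 0.00493). Both were called without any 1 library.

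Of 17 genes of endoplasmic reticulum stress 9 fell, against 13.0% of all genes, with a median log2 change of -0.06 in replicate 1 and -0.90 in replicates 2 and 3. HSPA5, the chaperone BiP, had 810, 402 and 370 CPM in E8 and 844, 1032 and 1076 CPM at t0 (-0.97 ± 0.22, adjusted p = 0.00908). In replicate 1 its change was -0.06 (adjusted p of the difference between replicate sets = 6.20e-04), and without E8 or t0 replicate 2 or 3 the call was gone (up to 0.0709). The count of the list was 2 without E8 replicate 2, 3 without E8 replicate 3, 1 without t0 replicate 2 and 0 without t0 replicate 3. In edgeR 13 were lower at an unadjusted p below 0.05, and DESeq2 called 10.

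Genes of the NRF2 response to oxidants showed 6 falls among 21, against 13.0% of all genes, of which 2 or 3 were called without E8 replicate 2 or 3 or t0 replicate 2 or 3. NQO1, the quinone reductase, had 46.3, 45.0 and 35.1 CPM in E8 and 95.4, 176 and 179 CPM at t0 (-1.83 ± 0.29, adjusted p = 0.00251, and 0.0466 without the block). GCLM, the regulatory subunit of glutathione synthesis, had 33.7, 14.5 and 15 CPM in E8 and 54.2, 41.6 and 41.3 CPM at t0 (-1.24 ± 0.21, adjusted p = 0.00304). NQO1 and GCLM were lower in every E8 library than in any t0 library and were called without any 1 library.

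Transcripts of the mitochondrial genome fell in 8 of 13 genes, against 13.0% of all genes, with a median log2 change of -0.11 in replicate 1 and -1.02 in replicates 2 and 3. MT-ND2, a subunit of complex I, had 457, 1164 and 1393 CPM in E8 and 632, 2950 and 3516 CPM at t0 (log2 change -1.07 ± 0.27, adjusted p = 0.0155, and up to 0.101). The share of all counts on these genes was 1.60%, 2.22% and 2.89% in E8 and 1.62%, 4.09% and 5.09% at t0. Replicate 1 thus had nearly the same share in both groups, and the groups overlap. The 8 calls became 4 without E8 replicate 1 and at most 1 without E8 replicate 2 or 3 or t0 replicate 2 or 3. A high mitochondrial share is also a sign of RNA or cell quality, whose part in the result was not tested.

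Of the cell cycle lists, 10 of 35 G1/S and replication genes fell, against 13.0% of all genes, and the median log2 change was 0.13 in replicate 1 and -0.52 in replicates 2 and 3. ORC1, of the origin recognition complex, had 97.1, 66.6 and 65.5 CPM in E8 and 114, 113 and 113 CPM at t0 (-0.57 ± 0.11, adjusted p = 0.00523). CCNE2, the S phase cyclin E2, had 6.11, 1.74 and 1.92 CPM in E8 and 11.3, 4.28 and 4.80 CPM at t0 (-1.15 ± 0.23, adjusted p = 0.00579). Both calls held without any 1 library, while the count of the list was 21 without E8 replicate 1 and 3 or 4 without E8 replicate 2 or 3 or t0 replicate 2 or 3. Of 32 G2/M genes 4 rose, a share near the 12.6% of all genes, and none was called lower (2 at an unadjusted p below 0.05, 1 by DESeq2). TOP2A, the mitotic topoisomerase, had 1043, 564 and 619 CPM in E8 and 929, 433 and 437 CPM at t0 (0.37 ± 0.10, adjusted p = 0.0179). With 1 library left out the list had 0 to 6 members called higher, with none without E8 replicate 2, E8 replicate 3, t0 replicate 2 or t0 replicate 3.

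Immediate early genes, which answer growth signals and stress within minutes, rose in 9 of 22 cases, against 12.6% of all genes, with a median log2 change of 0.13 in replicate 1 and 1.04 in replicates 2 and 3, and the count was 2 without any 1 of E8 replicate 2, E8 replicate 3, t0 replicate 2 and t0 replicate 3. NR4A1, an orphan nuclear receptor, had 26.7, 36.9 and 32.4 CPM in E8 and 16.8, 17.5 and 15.7 CPM at t0 (log2 change 0.94 ± 0.18, adjusted p = 0.00476) and was called without any 1 library. EGR1, a zinc finger factor, had 15.1, 229 and 180 CPM in E8 and 7.81, 27.3 and 22.3 CPM at t0 (2.46 ± 0.64, adjusted p = 0.0171, up to 0.0971). For 13 of the 22 the change differed between the replicate sets, all larger in replicates 2 and 3, against 7.78% of all genes.

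YAP and SRF targets had opposite changes in the replicate sets. Of 17 YAP-TEAD targets none was called by edgeR (3 higher and 0 lower at an unadjusted p below 0.05, and 1 higher by DESeq2). Yet 14 differed between the sets, all larger in replicates 2 and 3, against 7.78% of all genes. The median log2 change was -0.63 in replicate 1 and 0.77 in replicates 2 and 3, and 15 of 17 had opposite signs, against 35.9% of all genes. CTGF (chromosome 6, 131948176 to 131951373), a secreted matricellular protein gene, had 34.1, 513 and 510 CPM in E8 and 124, 79.6 and 83.3 CPM at t0 (adjusted p = 0.460). Its log2 change was -1.85 in replicate 1 and 2.64 in replicates 2 and 3 (adjusted p of the difference = 9.79e-07). CYR61, its relative, had 18.8, 670 and 714 CPM in E8 and 72.1, 90.6 and 95.1 CPM at t0, a change of -1.91 in replicate 1 and 2.89 in replicates 2 and 3 (adjusted p of the difference = 1.29e-06).

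Of 27 actomyosin and SRF targets 18 differed between the sets, again all larger in replicates 2 and 3, against 7.78% of all genes. TAGLN, the smooth muscle protein transgelin, had 23, 381 and 424 CPM in E8 and 174, 114 and 121 CPM at t0, a log2 change of -2.89 in replicate 1 and 1.77 in replicates 2 and 3 (adjusted p of the difference = 2.98e-07). PDGFB, a growth factor gene, had 11.1, 305 and 293 CPM in E8 and 32.0, 11.6 and 12.9 CPM at t0, and THBS1, the matrix protein thrombospondin, had 26.7, 185 and 192 CPM in E8 and 89.3, 35.4 and 38.6 CPM at t0. Both were lower in E8 within replicate 1 and higher within replicates 2 and 3. Of the SRF list, TPM2 and MYL9 were called lower (adjusted p = 0.0412 and 0.0484). Leaving out any 1 library ended the call of MYL9 (adjusted p 0.0610 to 0.196). TPM2 kept its call in 1 of the 6 fits with 1 library left out (adjusted p up to 0.166). The direction of the list's calls hung on replicate 1: 7 members were higher and 0 lower without t0 replicate 1, 4 higher and 1 lower without E8 replicate 1, and 14 higher and 3 lower without replicate 1 in every group.

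**Figure D3:**
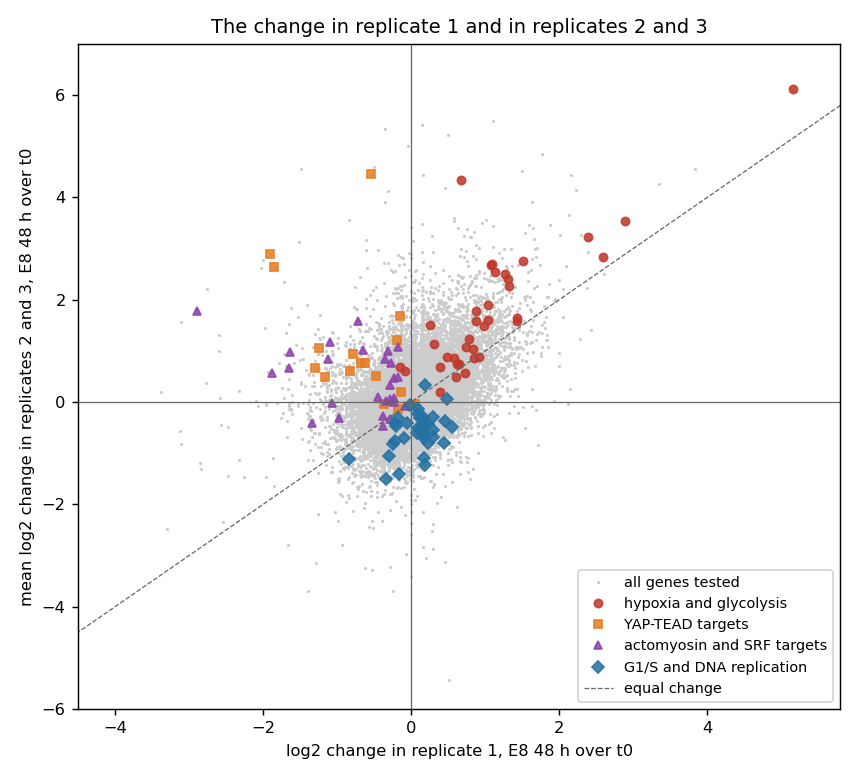
Log2 change of E8 at 48 h over t0 in replicate 1 (x axis) and its mean over replicates 2 and 3 (y axis), after adding 0.5 CPM, 1 point a gene, with 4 lists in colour over all 21554 genes in grey; the dashed line marks equal change. Hypoxia genes sit in the upper right for 34 of 36 members, while YAP-TEAD targets sit in the upper left, with a median of -0.63 in replicate 1 and 0.77 in replicates 2 and 3.

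The 12 largest falls did not centre on 1 list. MAP1A, a microtubule-associated protein gene of neurons, had 9.22, 1.39 and 1.20 CPM in E8 and 25.1, 22.8 and 22.8 CPM at t0 (log2 change -3.17 ± 0.42, adjusted p = 0.00105). ANXA1, annexin A1, had 1.79, 1.49 and 1.58 CPM in E8 and 22.1, 7.61 and 15.6 CPM at t0 (-3.09 ± 0.62, adjusted p = 0.00598). CAV1, the coat protein of caveolae, had 3.00, 10.9 and 12.5 CPM in E8 and 19.0, 25.3 and 42.6 CPM at t0 (-1.91 ± 0.36, adjusted p = 0.00463). Each of these 3 was lower in all E8 libraries than in any t0 library.

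PRICKLE1, of planar cell polarity, had 16.9, 6.07 and 4.76 CPM in E8 and 42.0, 49.1 and 54.8 CPM at t0 (-2.68 ± 0.55, adjusted p = 0.00644). RYR2, the cardiac calcium release channel, had 6.40, 7.61 and 13.7 CPM in E8 and 49.2, 23.5 and 28.8 CPM at t0 (-1.81 ± 0.40, adjusted p = 0.00878). C6orf141, of unknown function, had 3.00, 2.70 and 4.59 CPM in E8 and 12.1, 11.1 and 13.3 CPM at t0 (-1.86 ± 0.31, adjusted p = 0.00302). FST, the Activin antagonist follistatin, had 30.4, 4.56 and 3.60 CPM in E8 and 61.1, 20.4 and 24.5 CPM at t0, with overlap (-1.85 ± 0.26, adjusted p = 0.00141). MAP1A, ANXA1, CAV1, PRICKLE1, RYR2, C6orf141 and FST, and NQO1 above, were called without any 1 library. The other 4 were not: GLIPR1L1, HTR1A, VGF and NKX1-2 fell by 2.74, 1.86, 1.83 and 1.8 on the log2 scale, and their adjusted p reached 0.0582, 0.119, 0.132 and 0.0737 when 1 library was left out.

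The other media at 48 h share the seeding and the time but not the growth factors. Between E8 and E6 612 genes differed (2.84%), 284 higher (1.32%) and 328 lower (1.52%) in E8. Between E8 and BA 3801 differed (17.6%), 1575 higher (7.31%) and 2226 lower (10.3%) in E8. Of the hypoxia list 1 of 36 members differed from E6, HK1 (adjusted p = 0.0325), and 1 from BA, EGLN3 (adjusted p = 0.00243). Its median log2 change from t0 was 1.34 in E8, 1.37 in E6 and 1.24 in BA, values that share their t0 libraries. SLC16A3 changed by 6.32 in E8, 6.08 in E6 and 6.78 in BA, and the log2 difference of E8 was 0.24 ± 0.31 from E6 (adjusted p = 0.832) and -0.46 ± 0.31 from BA (adjusted p = 0.333). A p that misses the threshold does not show that media act alike.

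Some falls did part the media. FST, which fell by 1.85 from t0 in E8, stood 2.94 below E6 and 3.63 below BA on the log2 scale (adjusted p = 2.38e-04 and 1.54e-05). C6orf141 stood 2.67 below E6 (adjusted p = 0.00118) and 1.76 above BA (adjusted p = 0.00523). ANXA1 was not called different from E6 (adjusted p = 0.937) and was 2.97 below BA (adjusted p = 0.00751). PNRC1, called higher than t0 in E8, stood 0.40 below E6 (adjusted p = 0.0469) and 0.53 below BA (adjusted p = 0.00355). Of the cholesterol synthesis list, 17 of 25 members were lower in E8 than in BA, against 10.3% of all genes. Against t0 3 rose and 2 fell, where 12.6% of all genes were called higher and 13.0% lower. Without t0 replicate 1, 5 rose and 6 fell. Without any 1 of E8 replicate 2, E8 replicate 3, t0 replicate 2 and t0 replicate 3, 0 or 1 rose and 1 fell.

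Single libraries between t0 and 48 h showed how levels ran over time, 1 library a time point and with no test. SLC16A3 had 1.43 CPM at t0 (replicate 1) and 0.477, 1.60, 14.9, 2.93, 1.07, 47.5 and 23.9 CPM at 6, 12, 18, 24, 30, 36 and 42 h in E8, then 68.9 CPM at 48 h (replicate 1). The hypoxia list followed: its median log2 change from t0 replicate 1 lay between -0.10 and 0.30 up to 30 h, then at 0.78, 0.51 and 0.87 at 36, 42 and 48 h. The 18 h and 36 h libraries stood apart, with CDH1, the epithelial cadherin, at 18.5 and 24.9 CPM, against 83.8 CPM at t0 and 100 to 137 CPM at the other times. Both libraries also had the highest SLC16A3 among their neighbours in time, and without them SLC16A3 ran at 0.477, 1.60, 2.93 and 1.07 CPM at 6, 12, 24 and 30 h and at 23.9 and 68.9 CPM at 42 and 48 h.

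ANXA1 was lower from the first time point, at 13.5, 5.61, 2.98, 5.85, 3.89, 1.5 and 1.86 CPM from 6 to 42 h, against 22.1 CPM at t0 and 1.79 CPM at 48 h. PNRC1 stood above its t0 level of 5.15 CPM at every time, at 7.33 CPM at 6 h and between 8.90 and 22.5 CPM later. CTGF stood at 52.1 CPM at 6 h and between 25.5 and 59.0 CPM later, against 124 CPM at t0. The labels of the 6 to 42 h libraries carry no replicate number, and these libraries were set here beside replicate 1. Whether replicates 2 and 3, in which CTGF was higher at 48 h, ran the same course cannot be told.

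**Figure D4:**
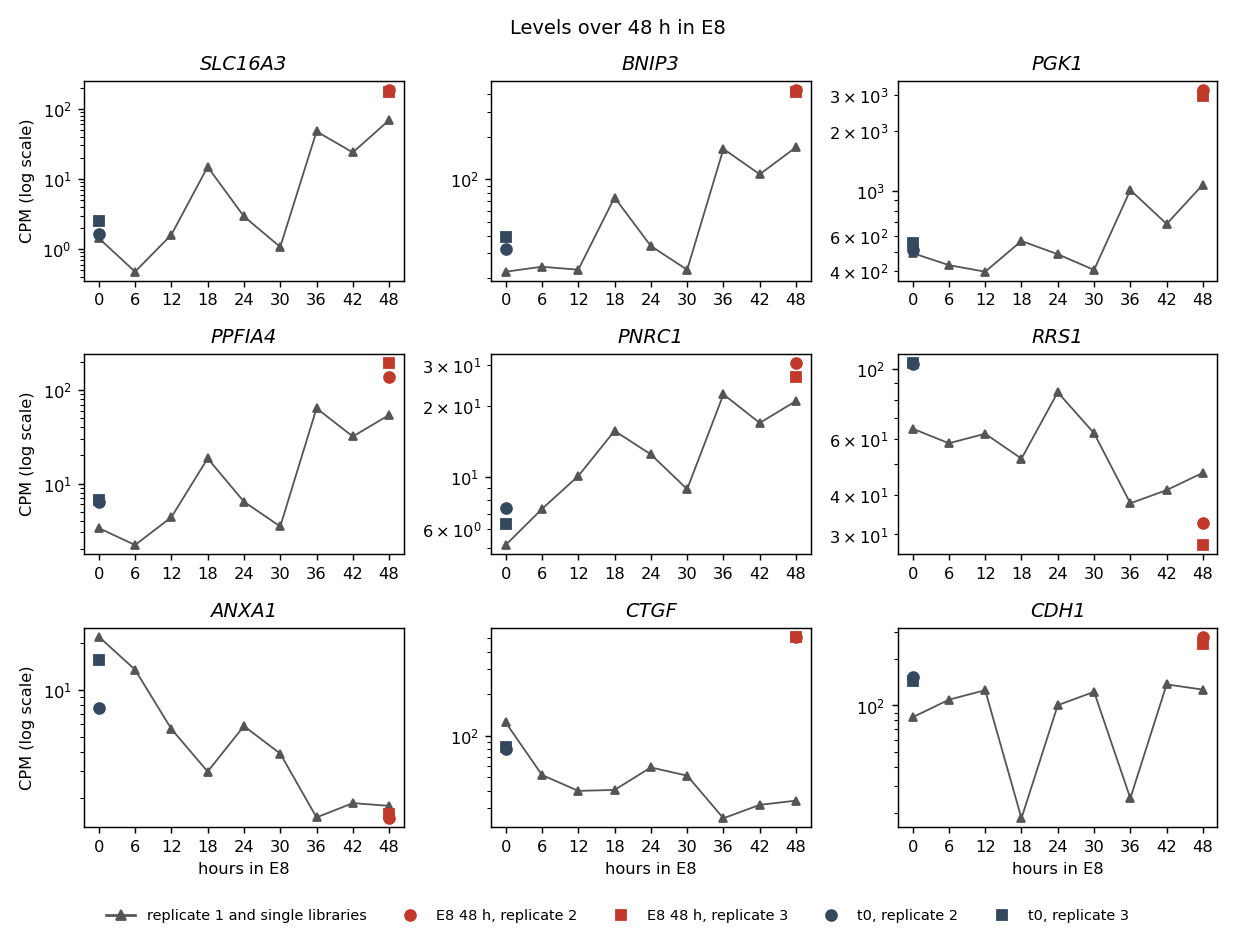
Level (CPM, log axis) of 9 genes against hours in E8, with grey triangles for replicate 1 and the single libraries and coloured markers for replicates 2 and 3 of E8 at 48 h (red) and t0 (blue). At 48 h SLC16A3 reaches 68.9 CPM in replicate 1, 184 CPM in replicate 2 and 171 CPM in replicate 3, while CTGF ends at 34.1, 513 and 510 CPM.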

How the data were processed

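RNA-seq counts per gene for 35 libraries, 58581 genes with GENCODE release 23 symbols per the file headers, were used as the authors deposited them. The submitters' processing notes name hg38, featureCounts and DESeq2, with versions and the strand setting not given in the sources used here. The authors' deposited DESeq2 table holds log2 fold changes and adjusted p-values and was used only as an alternative. Its header does not name the group each comparison was made against, and its E8 48 h columns were read here as set against t0. Total counts ran from 11793453 to 37191969 a library.

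From the counts, edgeR 4.0.16 (R 4.3.3, limma 3.58.1) was run with TMM scaling, its default filter (21554 genes kept) and a quasi-likelihood F-test over the 15 libraries of the 5 groups with 3 replicates. The replicate number was a block, and p-values were adjusted by Benjamini-Hochberg over all genes tested, with calls below 0.05. The deviations of same-numbered E8 and t0 libraries from their group means correlated at 0.799, 0.707 and 0.643 for numbers 1, 2 and 3, and the number was kept as the block. Unlike numbers gave 0.677 (t0 replicate 3 with E8 replicate 2) and 0.587 (t0 replicate 2 with E8 replicate 3), so these values set replicate 1 apart but do not show that numbers 2 and 3 pair. Standard errors were derived from the fitted log2 change and its F. Changes within a replicate pair used log2(CPM + 0.5). A term for replicate 1 against replicates 2 and 3 tested whether the change differed between them. In it replicate 1, which is 1 library a group, was taken to vary like the others. DESeq2 1.42.0 and other settings served as alternatives. Tested on simulated counts for E8 at 48 h against t0 (21063 genes), this test recovered 58% of 100 genes changed 2-fold and 94% of 100 genes changed 4-fold. Recovery of genes whose change differs between replicate 1 and replicates 2 and 3 was not tested. Positions are from GENCODE 29 on GRCh38, which held 81.3% of the genes tested, and promoter windows are from RefSeq.

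The 40 gene lists and their members were chosen with earlier results of these data known. Genes named are the 12 largest rises and 12 largest falls among called genes with a mean of at least 10 CPM in either group and 1 sign in all pairs, up to 5 called members of each list, POU5F1, SOX2 and NANOG, and the 6 genes leading the difference between replicates. Others were chosen after their values were seen.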

Additional observations from a re-analysis of the deposited data

Results flagged for a closer look

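In 3024 genes the change of E8 at 48 h over t0 differed between replicate 1 and replicates 2 and 3, by the test of that difference. The following values are the log2 change in replicates 2 and 3 minus that in replicate 1. It was largest among the genes chosen by this difference, at 6.27 for PDGFB, 5.79 for IGFBP5 (a secreted binder of insulin-like growth factors), 4.96 for CYR61, 4.82 for TAGLN, 4.64 for CTGF and 4.22 for THBS1. IGFBP5 had 109, 38.6 and 34.0 CPM in E8 and 154, 0.939 and 1.09 CPM at t0. Among the largest rises it was 2.16 for SPAG4, 1.93 for FER1L4 and 2.59 for ATP8B3, which rose less in replicate 1. Among the largest falls it was -2.56 for MAP1A, -1.82 for PRICKLE1, -0.93 for HTR1A, -1.31 for FST, -0.98 for NQO1 and -1.96 for NKX1-2, which fell less in replicate 1. It was 1.8 for VGF and 1.76 for RYR2, which fell more in replicate 1. Replicate 1 is 1 library a group, so the spread of its change was not measured. What sets replicate 1 apart was not tested.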

How the results depend on the processing

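The 5510 genes called became 30 without the replicate block and 3335 from only the 6 libraries with the block. From only the 6 libraries without the block edgeR called 0, with 2482 at an unadjusted p below 0.05. DESeq2, run on the 15 libraries with the block, called 6211. The authors' deposited table had 779 (638 positive and 141 negative), and its header does not name the group E8 was set against. A block of 2 levels (replicate 1 against replicates 2 and 3) gave 5971. They ranged from 2 to 11728 when 1 replicate number was left out of every group or 1 library was left out. Of those changed at least 2-fold, 2050 as reported, 29 were called without the replicate block, 0 from only the 6 libraries without it and 647 in the authors' deposited table, with 2 to 3891 when replicates were left out. The 3024 genes whose change differed between replicates became 1915 to 4123 with 1 library left out. Scaling moved little: the median over all genes was -0.00, -0.02 and -0.02, and 49.3%, 48.6% and 47.1% of calls were higher, by TMM, RLE and DESeq2. Without a filter 2427 genes were called higher and 1990 lower, and with a stricter one 2531 higher and 2721 lower. No gene named by the rule changed sign under the alternatives run (for the 6 chosen by the difference between replicates, the sign of that difference), but the balance of calls turned in lists with few calls: FGF-ERK feedback, 0 higher and 1 lower, had 3 higher and 0 lower from only the 6 libraries, and p53 targets, 6 higher and 4 lower, had 1 higher and 2 lower without E8 or t0 replicate 2 or 3. Of 151 named genes called, 58 were called whichever of the 6 libraries was left out and 93 were not. The cause of these differences was not tested. With 3 libraries a group, of which 1 stands apart, small changes limit what can be called.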

Other observations

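Of 14 Notch pathway genes tested, 3 rose in E8 at 48 h, where 12.6% of all genes were called higher and 13.0% lower. MFNG, a glycosyltransferase that modifies Notch receptors, had 5.07, 10.3 and 9.15 CPM in E8 and 1.06, 1.91 and 2.05 CPM at t0 (log2 change 2.32 ± 0.41, edgeR adjusted p = 0.00381). HES1, a repressor that Notch switches on, had 20.1, 45.0 and 37.7 CPM in E8 and 10.5, 14.5 and 13.0 CPM at t0 and was called in 4 of 6 fits with 1 library left out. Of 26 interferon response genes 7 rose and 1 fell. The 7 rises became 3 without E8 replicate 2, 4 without E8 replicate 3, 3 without t0 replicate 2 and 1 without t0 replicate 3. There were 6 without E8 replicate 1 and 8 without t0 replicate 1. BST2, which tethers budding viruses, had 8.42, 64.5 and 57.2 CPM in E8 and 4.46, 30.1 and 31.3 CPM at t0 (log2 change 0.99 ± 0.20, edgeR adjusted p = 0.00645), higher in E8 within each replicate number although the groups overlap.

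TJP3, of the tight junction, had 4.67, 14.2 and 11.6 CPM in E8 and 0.850, 3.43 and 2.26 CPM at t0. NKD2, an inhibitor of WNT signalling, had 5.59, 18.0 and 17.0 CPM in E8 and 1.70, 5.76 and 5.19 CPM at t0. Both rose within each replicate number (log2 change 2.32 and 1.71). ACAT2, of cholesterol synthesis, fell to 279, 143 and 139 CPM in E8, against 417, 279 and 287 CPM at t0. Among p53 targets 6 of 28 rose and 4 fell, the falls near the share over all genes (13.0%) and including TP53I3 (24.1, 18.5 and 17.9 CPM in E8 and 28.6, 58.9 and 59.2 CPM at t0).

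By gene class, 47 of 291 lincRNAs were higher (16.2%) and 9 lower (3.09%), and 62 of 415 antisense genes were higher (14.9%) and 17 lower (4.10%), against 12.6% higher and 13.0% lower over all genes, where reads of the partner gene cannot be told apart without strand. Of 49 snoRNA genes 11 were lower. The CRE core TGACG, read on both strands, lay in the promoter window of 10 of 16 matched immediate early genes (62.5%), against 21.7% of all promoters, and the members' windows held 66.4% G and C, against 56.9%. The AP-1 site TGANTCA lay in 0 of the same 16 (6.6% of all promoters). The E-box CACGTG lay in 0 of 16 matched MYC and ribosome biogenesis genes and in 3 of 21 starvation and FOXO genes (6.49% of all), and the FOXO site GTAAACA in 1 of those 21 (2.98% of all).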
